A study of Homo sapiens with 32 samples.

Results

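Pseudogene loci are the 13206 genes, of 64449 on the chromosomes of the GENCODE 44 annotation placed on GRCh37, whose type contains the word pseudogene and which overlap no protein-coding gene on their own strand. Of 14906 genes of a pseudogene type, 1700 were left out for such an overlap, and 493 rRNA pseudogenes were set apart beforehand. The loci comprised 9224 processed pseudogenes, 3187 unprocessed ones, 219 unitary ones, 238 immune receptor segments and 338 of no stated type. The annotation marked 1308 of them as transcribed, and 11898 carried no such mark.

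A processed pseudogene is a copy of a messenger RNA that was reverse transcribed and inserted into the genome, so it usually has no introns and no promoter of its own. An unprocessed pseudogene arose by duplication of genomic DNA and often keeps the exons and introns of its parent, while a unitary pseudogene is a former gene that lost its coding function without a functional copy remaining. Some of each kind are transcribed into spliced, polyadenylated RNA. Alyref and Chtop are adaptors of the TREX complex, which couples transcription and processing of RNA to its export from the nucleus, and Nxf1 is the receptor that carries mRNA through the nuclear pore.

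Individual-nucleotide crosslinking and immunoprecipitation (iCLIP) reads out the RNA base at which a protein was crosslinked by ultraviolet light. Libraries were made from human embryonic kidney cells in the FlpIn form, which carries one construct at a fixed genomic site. The sample labels call the line HEK293T, and the study's methods name FlpIn-293 cells for the tagged proteins. The 3 factor groups expressed FLAG-tagged Alyref, Chtop or Nxf1, switched on for 48 h by tetracycline, of which the cells of the adaptors Alyref and Chtop received 10 ng/mL and those of Nxf1 received 5. The Control group carried the empty FLAG construct, and its tetracycline dose was not given in the sources used here. All 12 libraries, 3 replicates in each of the 4 groups, were precipitated with an antibody against FLAG. The tagged proteins were added to cells that also hold the untagged ones, and nothing states that replicates came from separate cultures, so p-values measure the spread between these libraries, which may be technical.

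The unit of measurement was the crosslink tag, 1 unique molecule assigned to 1 base on 1 strand. Depth ranged from 81307 to 631704 tags in the Alyref libraries, from 47052 to 538844 in Chtop, from 8134 to 179346 in Nxf1 and from 7017 to 46628 in Control. One tag was thus worth 1.58 CPM (tags for every 1000000 tags of the library) in the deepest library, 123 in Nxf1 replicate 1 and 143 in Control replicate 1. On its own strand, every single locus rests on 0 to 4 tags in those shallow libraries. Tags that lay in a pseudogene and also in another gene on the strand were left out at first. They made up 33.4 to 54.2% of the tags in the loci of a library, so values with them kept are given beside the others. The overlapping gene was often a lncRNA: of the 1308 transcribed pseudogenes, 907 (69.3%) overlapped one on their strand, and of the 816 transcribed unprocessed ones 790 (96.8%) did.

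Crosslinked bases are shown first: the most used base of each group, and the most used base within 4 of the 5 loci with the highest mean CPM. Each line gives 21 bases of GRCh37 read 5′ to 3′ on the strand of the pseudogene, with the crosslinked base as the capital.
PGAM1P5, chr12:95965042-95965062, plus strand: ctctactaaaCataaaaaaaa
PGAM1P5, chr12:95965038-95965058, plus strand: tcgtctctacTaaacataaaa
AFG3L1P, chr16:90061240-90061260, plus strand: cactacccctTaacagggatg
EGFEM1P, chr3:167967441-167967461, plus strand: tcactcggttTcagttgctcc
TP73-AS1, chr1:3663800-3663820, minus strand: ggcggcacttTgccgcctcag
C19orf48P, chr19:51301344-51301364, minus strand: gctcctggttTgagctgcatt

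Both windows of PGAM1P5, a transcribed processed copy of the glycolytic enzyme phosphoglycerate mutase, lay in an intron of the locus. The first was the most used base of Alyref, with 10 tags in Alyref, 8 in Chtop, 8 in Nxf1 and 1 in Control. The second was the most used base of the other groups, with 12 tags in Chtop, 9 in Nxf1, 3 in Control and 5 in Alyref. Its 21 bases occurred 2 times in the genome, and those of the first occurred 15 times. The other 4 windows lay in exons and occurred once in the genome, and no base among them held more than 4 tags. At the AFG3L1P base there was 1 tag in each of Alyref replicates 2 and 3 and Chtop replicates 2 and 3. The most used bases of EGFEM1P (tied with others, 5 in all), TP73-AS1 and C19orf48P held 2, 3 and 3 tags.

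Repeated use of one base was rare. Outside chromosome 8, tags in the loci fell on 11998 different bases. Of these, 12 held 5 or more tags, 40 were used in 3 or more libraries and 4 in 6 or more. The crosslinked base was a uracil in 48.9% ± 2.3 (SD, n = 3) of tags in the loci of the Alyref libraries, 49.2% ± 5.0 in Chtop, 47.6% ± 2.7 in Nxf1 and 50.7% ± 10.2 in Control. The 30 bases after the crosslinked base occurred once in the genome for 68.3% ± 2.9 of tags in the loci in Alyref, 73.4% ± 2.8 in Chtop, 68.7% ± 7.2 in Nxf1 and 72.1% ± 6.5 in Control. Over all tags of a library this share was 72.3 to 91.5%. The authors kept reads that aligned to 1 place only. Even so, reads of a pseudogene and of its parent or sister copies are split by the few bases at which they differ, so the values of near-identical copies are uncertain.

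The first question was how much of each factor's RNA contact fell on pseudogenes. The loci held a similar, small share of the tags in every group, and no factor's difference from Control was larger than the spread between libraries. In Alyref the share was 0.605, 0.380 and 0.510% of all tags in replicates 1 to 3, from 492, 2403 and 3077 tags. Chtop gave 0.478, 0.400 and 0.567%, from 225, 2158 and 2434 tags. Nxf1 gave 0.369, 0.441 and 0.631%, from 30, 526 and 1132 tags. In Control the share was 0.399, 0.352 and 0.527%, from 28, 164 and 195 tags. The 4 ranges overlapped, and the library with the highest share, Nxf1 replicate 3, belonged to the same group as one of the lowest.

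Group means were 0.499% ± 0.113 in Alyref, 0.482% ± 0.083 in Chtop, 0.480% ± 0.135 in Nxf1 and 0.426% ± 0.091 in Control (SD, n = 3). The differences from Control were 0.072, 0.056 and 0.054 percentage points, with two-sided exact permutation p = 0.5, 0.5 and 0.6. With 3 libraries against 3 the smallest p such a test can give is 0.1. The 3 comparisons shared the Control libraries. Over the 21 comparisons with Control, 7 measures by 3 factors, the adjusted p of each was 0.84. Beside these shares, protein-coding genes held 72.1, 70.7, 65.5 and 62.9% of all tags in Alyref, Chtop, Nxf1 and Control, and lncRNA genes held 4.75, 5.09, 5.28 and 6.02%.

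With tags in overlapping genes kept, the share rose to 0.921% ± 0.081 in Alyref, 0.880% ± 0.123 in Chtop, 0.799% ± 0.138 in Nxf1 and 0.716% ± 0.070 in Control. The Alyref libraries, at 0.831 to 0.986%, then lay above the Control libraries, at 0.656 to 0.792%. The difference was 0.206 percentage points, with exact permutation p = 0.1, the smallest possible. A higher share in Alyref without overlap between the groups was therefore seen only with these tags included.

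**Figure D1:**
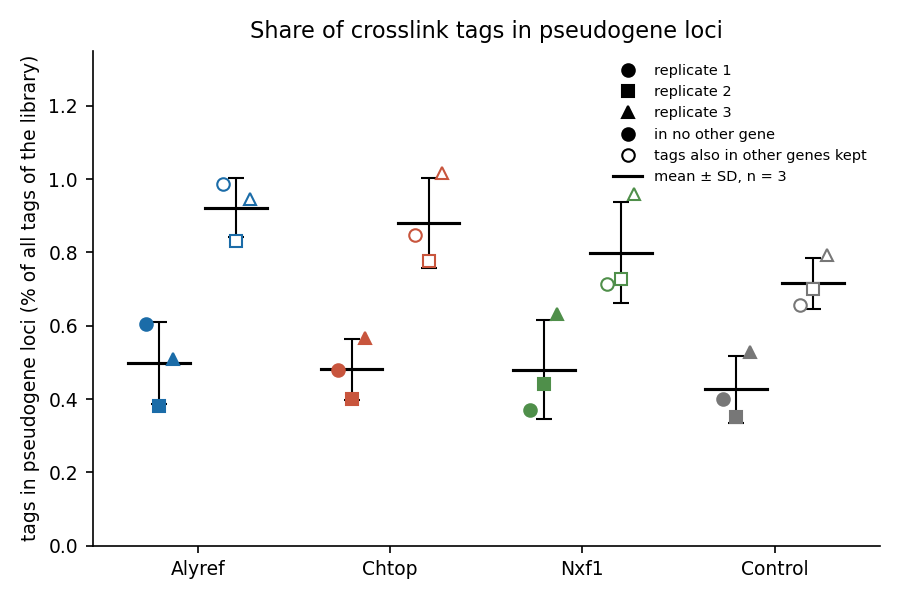
Share of all crosslink tags of a library (%, vertical axis) that fell in pseudogene loci, for the 3 replicates of each group. Filled symbols leave out tags that also lie in another gene on the strand and open symbols keep them; bars give the mean ± SD. The filled symbols of the 4 groups overlap between 0.352 and 0.631%, and the open Alyref symbols lie above the open Control symbols.

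Tags were found in few of the loci. In the 12 libraries together 2548 loci (19.3%) held at least 1 of 12864 tags, and 1343 of these held a single tag. Only 184 loci held 10 or more, and 10 loci held 22.5% of all tags in the loci. By group, 1593 loci (12.1%) held a tag in Alyref, 1227 (9.29%) in Chtop, 933 (7.06%) in Nxf1 and 253 (1.92%) in Control, an order that follows the number of tags in each group (5972, 4817, 1688 and 387). A locus without a tag was under the detection limit of 3 tags, which was 4.75 CPM in the deepest library and 428 CPM in the shallowest. These limits and all counting intervals cover counting error only.

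Unitary pseudogenes had tags in 116 of 219 loci (53.0%), the highest share of any type, and a median locus length of 9254 nucleotides. Processed pseudogenes had tags in 1909 of 9224 loci (20.7%; median length 580.5) and unprocessed ones in 482 of 3187 (15.1%; median length 1603). Immune receptor segments, which are rearranged and expressed in lymphocytes, had tags in 4 of 238 loci (1.68%). Among transcribed pseudogenes 355 of 1308 (27.1%) had a tag, and among the others 2193 of 11898 (18.4%). Once tags in overlapping genes were kept, these 2 counts became 735 (56.2%) and 2447 (20.6%), and 855 unprocessed loci (26.8%) then held a tag.

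The next comparison set processed against unprocessed and transcribed against other loci within each group. With all libraries, no difference in processed share from the other factors passed the test. Against Control, 3 libraries on each side cannot give a p under 0.1, so no difference could pass. Processed pseudogenes held similar mean shares of the tags in every group. Their share of tags in the loci was 58.5, 46.3 and 55.9% in Alyref, 52.0, 46.5 and 50.4% in Chtop, 36.7, 61.4 and 64.5% in Nxf1 and 60.7, 43.3 and 53.8% in Control. The 36.7% in Nxf1 replicate 1 came from 11 of 30 tags, with a 95% Wilson interval of 21.9 to 54.5%. Without that library, Nxf1 exceeded the other factors in processed share by 11.3 percentage points (unadjusted exact permutation p = 0.0357, the smallest possible in that comparison). Without Nxf1 replicate 2 or 3 instead, the difference was -1.03 or -2.57 points. Transcribed pseudogenes held 45.7% ± 8.2 of the tags in Alyref, 52.2% ± 8.8 in Chtop, 47.7% ± 19.6 in Nxf1 and 51.6% ± 4.9 in Control. With all libraries, no exact permutation p over these 2 measures was below 0.4.

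Tags per length gave an order of the types that depended on how overlapping genes were treated. In CPM per megabase of locus, processed pseudogenes had a mean of 197 in Alyref, 174 in Chtop, 197 in Nxf1 and 164 in Control, and unprocessed ones 85.8, 90.6, 84.1 and 78.1. The log2 ratio of processed over unprocessed was 1.09 ± 0.56 (SD) over the 12 libraries and above 0 in 12 of 12. An exact permutation test that flips the sign of each library gave p = 0.000488, and 0.00391 after adjustment over the 8 contrasts of this kind, which were chosen after seeing the data. Counting only bases followed by a unique 30-mer, the ratio was 0.62, above 0 in 11 of 12 libraries (exact permutation, adjusted p = 0.0125). With tags in overlapping genes kept it was 0.13 (8 of 12 libraries, adjusted p = 0.450 by the same permutation test). With both changes it turned to -0.48, above 0 in 2 of 12 libraries (adjusted p = 0.0125 by the permutation test). The order of processed and unprocessed pseudogenes was thus opposite in the first and last of these settings.

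For transcribed against other loci the log2 ratio of tag density was 0.26 ± 0.62 and above 0 in 7 of 12 libraries (exact permutation p = 0.174). With tags in overlapping genes kept it was 0.70 ± 0.54, above 0 in 11 of 12 (adjusted p = 0.00977 by the permutation test), and with unique 30-mers as well it was 0.60 (10 of 12, adjusted p = 0.0125 by the permutation test). A higher density in loci annotated as transcribed was therefore found when tags shared with any other gene on the strand counted, and did not pass the test when they were left out.

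Where within a pseudogene the factors were crosslinked was read from the loci that have introns. The exon share was higher in every Alyref and Chtop library than in any Control library, a gap that 3 libraries against 3 cannot bring past the threshold of 0.05. In Alyref, 43.7, 48.1 and 45.1% of tags in loci with introns lay in exons. Chtop gave 43.8, 59.8 and 63.2%. Nxf1 gave 48.1, 32.5 and 27.4%. Control gave 38.1, 24.6 and 25.2%, from 8 of 21, 32 of 130 and 37 of 147 tags. The lowest Alyref and Chtop values lay above the highest of Control, and the Nxf1 libraries overlapped with every group.

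The means were 45.7% ± 2.2 in Alyref, 55.6% ± 10.4 in Chtop, 36.0% ± 10.8 in Nxf1 and 29.3% ± 7.6 in Control. Alyref was 16.4 and Chtop 26.3 percentage points above Control, each with exact permutation p = 0.1, the smallest possible, and adjusted p = 0.70 over the 21 comparisons. Nxf1 was 6.71 points above Control (exact permutation p = 0.5). Against the other factors Chtop was 14.8 points higher (p = 0.083) and Nxf1 14.6 points lower (p = 0.119) in exact permutation tests whose smallest p is 0.0119. When overlapping genes were allowed, the means were 46.8, 53.3, 32.1 and 29.8% in the same order. Chtop then still lay above Control (exact permutation p = 0.1), and Alyref overlapped with it (p = 0.2).

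Protein-coding genes with introns showed the same order of the groups at higher levels. Their exon share was 58.8% ± 5.3 in Alyref, 70.9% ± 8.3 in Chtop, 47.8% ± 18.2 in Nxf1 and 32.2% ± 15.1 in Control. The share in pseudogenes was lower than in protein-coding genes of the same library in 11 of 12 libraries, by a mean difference of -10.8 ± 7.8 percentage points, with the exception of Control replicate 3 at 4.80 points above. The exact permutation test by sign flips gave p = 0.00195 for this contrast, which was added after seeing the data. The shares were not adjusted for how much of each gene class is exon. The contrast was not repeated with tags in overlapping genes kept. By group the difference was -13.2 points in Alyref, -15.3 in Chtop, -11.8 in Nxf1 and -2.88 in Control.

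**Figure D2:**
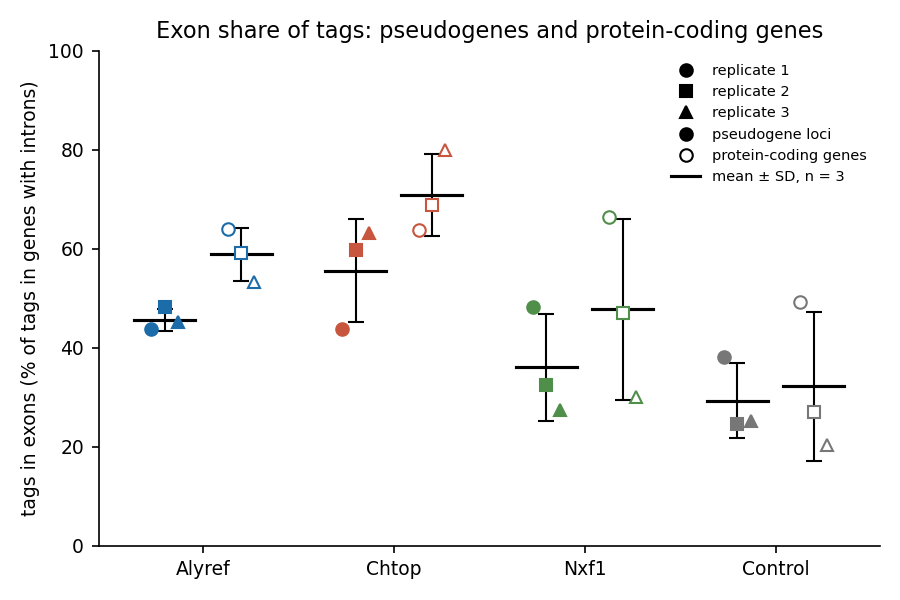
Share of tags that lay in exons (%, vertical axis) among the tags in genes with introns, for the 3 replicates of each group. Filled symbols are pseudogene loci, open symbols are protein-coding genes, and bars give the mean ± SD. Pseudogene loci lie below protein-coding genes of the same library in 11 of 12 libraries, and filled Alyref and Chtop symbols lie above those of Control.

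Along processed pseudogenes, the Alyref libraries had more tags near the 5′ end of the annotated locus than near its 3′ end. The annotated span, introns included, was cut into 3 equal parts, so its ends need not be those of the copied mRNA. In Alyref, 1274 of the 3122 tags lay in transcribed processed loci, where exons covered 0.664 Mb of 7.62 Mb. The measure was the log2 ratio of tags in the part nearest the 3′ end to those in the part nearest the 5′ end. It was -0.447, -0.350 and -0.333 in Alyref, 0.040, 0.180 and 0.296 in Chtop, 0.893, -0.084 and 0 in Nxf1, and -0.241, 0.268 and -0.717 in Control. All Alyref libraries lay below all Chtop and Nxf1 libraries. The Nxf1 replicate 1 value came from 3 tags near the 5′ end and 6 near the 3′ end.

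Alyref differed from the other factors by -0.60 on this log2 scale (exact permutation p = 0.0238, adjusted p = 0.375 over 21 comparisons). The difference thus failed the correction, although it had the same direction in 3 of 3 replicate numbers. Without 1 of the Alyref libraries, or without Chtop replicate 2 or 3, the unadjusted permutation p was 0.0536 to 0.107. Against Control the difference was -0.15 (exact permutation p = 0.7), and the Control libraries reached from below Alyref to within the range of the other factors.

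Tags in the loci were also set against the 1 kb on each side of them. On the log2 scale the density in the locus over that in the flanks was 0.73 ± 0.16 in Alyref, 0.33 ± 0.37 in Chtop, 0.51 ± 0.39 in Nxf1 and 0.50 ± 0.57 in Control. The value was above 0 in 10 of 12 libraries. Against Control the exact permutation p was 0.6 or more, in a test whose smallest p is 0.1. Alyref was 0.32 above the other factors (exact permutation p = 0.190).

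Strand was compared over the 8820 loci with no gene on the opposite strand. In Control and Nxf1 more tags lay opposite to the pseudogene than on its strand, and in Alyref the reverse was found. The log2 ratio of tags on the strand of the pseudogene to tags opposite was 0.172, 0.695 and 0.929 in Alyref and -0.884, 0.642 and 1.23 in Chtop. It was -1.27, -1.07 and -0.629 in Nxf1 and -0.753, -1.54 and -1.76 in Control. Alyref lay above Control in every library, by 1.95 in the mean (exact permutation p = 0.1, adjusted p = 0.70). Nxf1 differed from the other factors by -1.45 in the mean (exact permutation p = 0.0357, adjusted p = 0.375).

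Most of the opposite-strand tags lay at 2 loci. ENSG00000225840, a processed pseudogene on the minus strand of chrY:10034865-10036712, had no tag on its own strand in any library. On the plus strand it had 146, 330 and 362 tags in Alyref, 139, 328 and 213 in Chtop, 25, 385 and 523 in Nxf1 and 16, 167 and 165 in Control. As CPM these were 973 ± 714 in Alyref, 1353 ± 1388 in Chtop, 3073 ± 157 in Nxf1 and 3441 ± 1098 in Control. The 5.8S rRNA pseudogene RNA5-8SP6 begins on that plus strand 1052 bases after the end of the locus. CTD-2328D6.1, on the minus strand of chrX:108297361-108297792, likewise had no tag of its own, and its plus strand had 412 ± 251 CPM in Alyref, 460 ± 415 in Chtop, 1316 ± 383 in Nxf1 and 1309 ± 174 in Control. At both loci the Nxf1 and Control means were above those of Alyref and Chtop, while Chtop replicate 1 reached the Nxf1 range at the first.

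These 2 loci together held 63.8% of opposite-strand tags in Alyref, 61.0% in Chtop, 80.1% in Nxf1 and 85.5% in Control. Without them, an alternative chosen after seeing the data, the pseudogene's own strand held more tags in 12 of 12 libraries. The log2 ratio was then 2.21 ± 0.03 in Alyref, 1.83 ± 0.63 in Chtop, 1.76 ± 0.47 in Nxf1 and 1.51 ± 0.78 in Control. Alyref was 0.70 above Control (exact permutation p = 0.4) and Nxf1 differed from the other factors by -0.26 (exact permutation p = 0.452). The groups overlapped once these loci were left out. Tags aligned to the own strand of the 386 Y chromosome loci made up 0.854% of the tags in pseudogenes in Alyref. The values were 0.706% in Chtop, 1.18% in Nxf1 and 0.517% in Control. These positions are places of alignment in GRCh37 only. From which RNA these tags, or those opposite to ENSG00000225840, came was not tested.

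**Figure D3:**
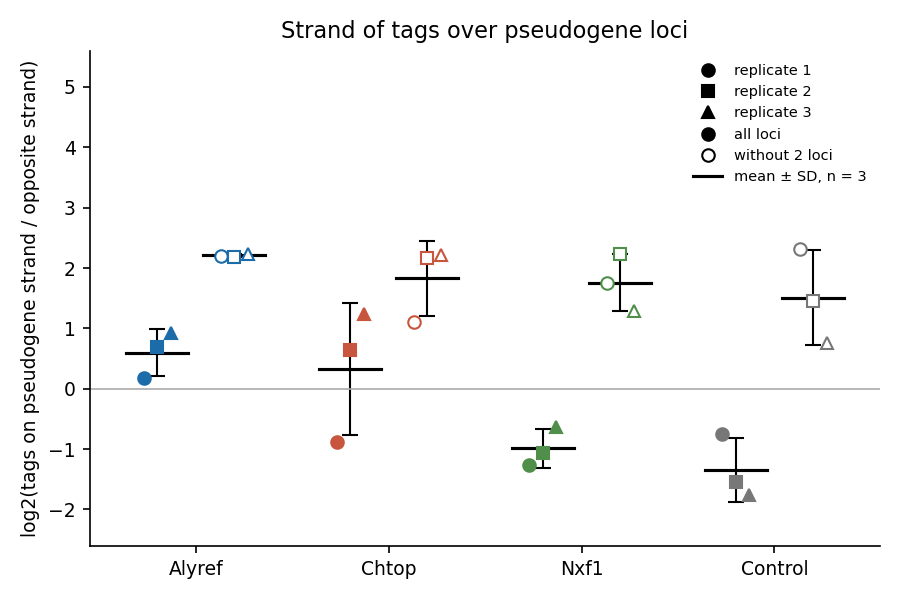
Log2 ratio of tags on the strand of the pseudogene to tags on the opposite strand (vertical axis), over loci with no gene on the opposite strand. Filled symbols are all such loci, open symbols leave out ENSG00000225840 and CTD-2328D6.1, and bars give the mean ± SD of 3 replicates. All filled Nxf1 and Control symbols lie below 0, and all 12 open symbols lie above it.

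Individual loci were then tested for a difference between groups with edgeR. Of 3240 genes with enough tags, 9 were pseudogene loci, so 13197 loci were not tested. The 10 loci with the highest mean CPM, which is not corrected for length, are described by their type. Of these, 6 were transcribed unitary or transcribed processed pseudogenes with most tags in exons.

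TP73-AS1 (chr1:3652075-3663937, minus strand), a transcribed unitary pseudogene whose RNA runs antisense to the gene of the p53 relative TP73, was the clearest case. In Chtop it had 10, 116 and 118 tags, or 213, 215 and 275 CPM. In Alyref it had 5, 41 and 41 tags, or 61.5, 64.9 and 68.0 CPM. In Nxf1 it had 1, 7 and 3 tags, and in Control 1, 0 and 0. Every Chtop library lay above every library of the other groups, and 97.1% of its tags lay in exons.

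TP73-AS1 was higher in Chtop than in the other factors by a log2 fold change of 2.25 (SE 0.30, edgeR adjusted p = 4.56e-06). Against Control the log2 fold change was 4.30 (SE 0.90, edgeR adjusted p = 0.00239), fitted on a Control total of 1 tag. The ratio of summed tags scaled by depth was 21.8-fold, with a counting interval of 3.87 to 864. In Nxf1 against the other factors TP73-AS1 was lower, with a log2 fold change of -1.52 (SE 0.46, edgeR adjusted p = 0.0254). Both Chtop calls held under every alternative and with any 1 library left out. The fold change against Control then ran from 3.42 without Control replicate 2 to 8.96 without Control replicate 1, which held the only Control tag, so its size is not set by these data. The Nxf1 call was lost with DESeq2 (adjusted p = 0.134) and without Alyref replicate 2 or 3, Chtop replicate 3 or Nxf1 replicate 2 or 3 (edgeR adjusted p = 0.0526 to 0.448), with a log2 fold change of -0.90 without Nxf1 replicate 3.

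Against Control, TP73-AS1 was the only locus called. In Chtop 1 of 9 loci was higher, where 9.04% of all genes tested were, and 0 were lower, against 5.59% of all genes. At an unadjusted p under 0.05, 3 loci were higher and 1 was lower. In Alyref and in Nxf1 edgeR called 0 loci against Control in either direction and 0 at an unadjusted p under 0.05. Of all genes, 0% were higher and 0.123% lower in Alyref, and 0% higher and 0.0309% lower in Nxf1. DESeq2 also called none in these.

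Against the other factors, 4 of 9 loci were higher in Chtop, where 17.5% of all genes tested were, and 0 were lower, against 11.4%. Beside TP73-AS1 these were AHSA2P, C10orf88B and C19orf48P. C19orf48P (chr19:51300944-51308186, minus strand), a transcribed unitary pseudogene with 86.6% of tags in exons, had 6, 71 and 79 tags in Chtop, 6, 56 and 39 in Alyref, 1, 11 and 14 in Nxf1 and 0, 4 and 3 in Control. Its CPM was 148 ± 31 in Chtop, 75.7 ± 12.1 in Alyref, 97.8 ± 22.9 in Nxf1 and 55.6 ± 48.2 in Control. The log2 fold change in Chtop was 0.89 (SE 0.28, edgeR adjusted p = 0.0180), and all Chtop libraries lay above those of the other factors. The call was lost with DESeq2 (adjusted p = 0.149), with no filter on low counts, and without Alyref replicate 2 or 3 (edgeR adjusted p = 0.0538 and 0.0929). C19orf48P was also not called without Chtop replicate 3, where TP73-AS1 was the only locus higher in Chtop.

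AHSA2P (chr2:61404553-61418338, plus strand), a transcribed unitary relative of the HSP90 activator AHSA1, had 0, 64 and 51 tags in Chtop, 3, 58 and 45 in Alyref, 1, 4 and 2 in Nxf1 and 0, 3 and 4 in Control. Exons held 97.0% of them. The log2 fold change in Chtop was 1.26 (SE 0.42, edgeR adjusted p = 0.0230), although the Chtop libraries overlapped with both other factors. C10orf88B (chr10:124639197-124658232, plus strand), a transcribed processed copy of C10orf88, had 3, 60 and 68 tags in Chtop, 4, 63 and 57 in Alyref, 1, 5 and 4 in Nxf1 and 1, 2 and 1 in Control. It was higher in Chtop by 1.15 on the log2 scale (SE 0.33, edgeR adjusted p = 0.00951) and lower in Nxf1, with a log2 fold change of -1.42 (SE 0.48, edgeR adjusted p = 0.0396). Here too the libraries of the groups overlapped. With DESeq2 the Chtop calls of AHSA2P and C10orf88B were lost (adjusted p = 0.234 and 0.129), as was the Nxf1 call of C10orf88B (adjusted p = 0.228). AHSA2P was also not called in Chtop without Alyref replicate 2 or 3 or without Chtop replicate 3. C10orf88B also lost the Chtop call without Alyref replicate 2 or Nxf1 replicate 3 (edgeR adjusted p = 0.0504 and 0.0698) and the Nxf1 call without replicate 2 or 3 of Alyref or of Nxf1 (edgeR adjusted p = 0.114 to 0.410). Without Chtop replicate 3 it had neither call.

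In Nxf1 against the other factors, 2 of 9 loci were lower (TP73-AS1 and C10orf88B), where 8.36% of all genes were, and 0 were higher, against 6.02%. In Alyref 1 of 9 was higher, where 1.91% of all genes were, and 0 were lower, against 0.556%. That locus was SMPD4BP (chr2:132250386-132279146, plus strand), a transcribed processed pseudogene related to the sphingomyelinase gene SMPD4, with 15 exons. It had 18, 135 and 84 tags in Alyref, 2, 61 and 39 in Chtop, 1, 7 and 9 in Nxf1 and 4, 4 and 0 in Control. The log2 fold change was 1.11 (SE 0.31, edgeR adjusted p = 0.0471). The 3 Alyref libraries lay above all those of Chtop and Nxf1, and the call was lost with DESeq2, RLE size factors, no filter or the replicate block (adjusted p = 0.0552 to 0.175). It was also lost without replicate 2 or 3 of Alyref, Chtop or Nxf1 (edgeR adjusted p = 0.0548 to 0.478). In Control the CPM of 219 ± 307 was set by 4 tags in the shallow replicate 1.

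The remaining loci of the 10 were not called in any comparison. AFG3L1P (chr16:90038989-90068569, plus strand), a transcribed unitary relative of mitochondrial AAA proteases, had 12, 92 and 72 tags in Alyref, 6, 70 and 77 in Chtop, 1, 10 and 12 in Nxf1 and 1, 3 and 1 in Control. EGFEM1P (chr3:167967310-168548387, plus strand), a transcribed unitary pseudogene, had 4, 73 and 88 tags in Alyref, 2, 43 and 21 in Chtop, 3, 7 and 17 in Nxf1 and 0, 9 and 5 in Control. Only 21.3% of its tags lay in exons, against 70.0% in AFG3L1P. ZNF37BP (chr10:43008958-43048280, minus strand), a transcribed processed zinc finger pseudogene, had 8, 52 and 68 tags in Alyref, 4, 77 and 53 in Chtop, 1, 3 and 15 in Nxf1 and 1, 3 and 0 in Control. DDX12P (chr12:9571269-9600825, minus strand), an unprocessed copy of a DNA helicase gene, had 8, 86 and 66 tags in Alyref, 6, 35 and 44 in Chtop, 0, 7 and 4 in Nxf1 and 0, 4 and 0 in Control. ENSG00000232546 (chr7:66313483-66323123, plus strand), also unprocessed, had 4, 16 and 19 tags in Alyref, 3, 14 and 8 in Chtop, 1, 2 and 2 in Nxf1 and 4, 4 and 0 in Control, and entered the 10 through the 4 tags of Control replicate 1. It was the only one of the 10 without enough tags for the test.

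**Figure D4:**
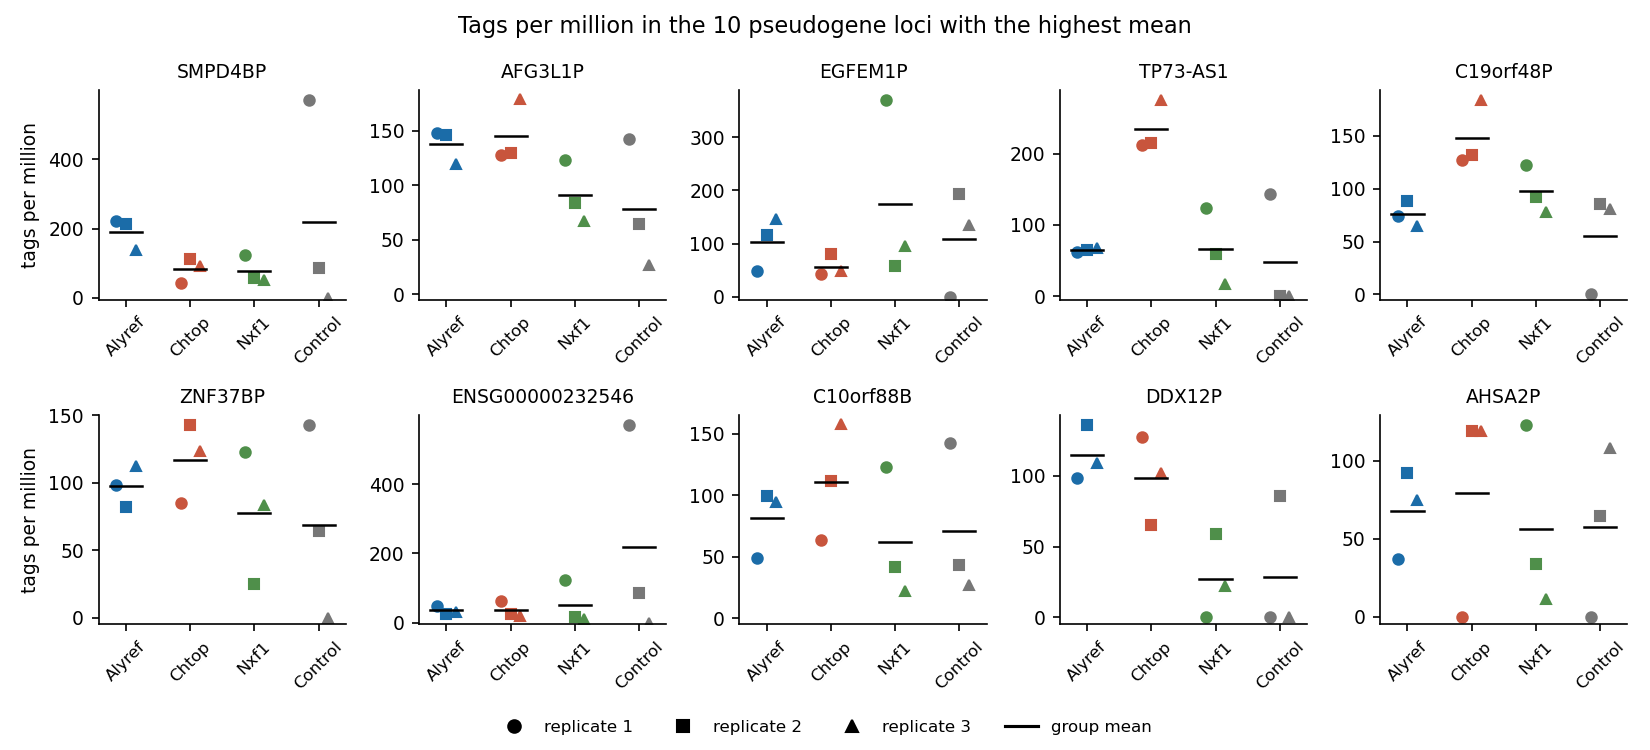
CPM (vertical axes, each from about 0, with a scale of its own) in the 10 pseudogene loci with the highest mean over the 12 libraries, by group. Symbols are replicates and lines are group means. Chtop lies above all other libraries in TP73-AS1, and the highest single points of SMPD4BP and ENSG00000232546 come from Control replicate 1, where 1 tag is 143 CPM.

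The median log2 fold change against Control of the 9 tested loci was 0.85 in Alyref, 0.92 in Chtop and -0.14 in Nxf1, beside 0.15, 0.16 and 0.09 over all 3240 genes. The 9 loci had passed a filter on low tags that favours the groups in which a locus is high.

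With tags in overlapping genes kept, 18 loci could be tested of 3242 genes. In Chtop against Control 1 locus was called higher (9.13% of all genes) and 0 lower (5.49%), and in Alyref and Nxf1 edgeR called 0, with 0.123% and 0.0308% of all genes lower. Against the other factors 6 were higher in Chtop (17.6%), 1 was lower in Chtop (11.4%), 2 were higher in Alyref (1.94%), 1 was higher in Nxf1 (6.08%) and 3 were lower in Nxf1 (8.57%). LRP5L, a transcribed unprocessed copy of part of the Wnt co-receptor gene LRP5, was the locus on both sides. It had 8, 38 and 29 tags in Alyref, 1, 14 and 9 in Chtop, 1, 11 and 26 in Nxf1 and 1, 4 and 1 in Control. Its log2 fold change was -1.91 in Chtop (SE 0.47, edgeR adjusted p = 0.00316) and 1.93 in Nxf1 (SE 0.45, edgeR adjusted p = 0.00482) against the other factors.

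ZNF731P, a transcribed unprocessed zinc finger pseudogene, was called in this fit, with a log2 fold change of 1.83 in Chtop against the other factors (SE 0.44, edgeR adjusted p = 0.00287). With tags in overlapping genes left out it was not tested. Its tags in that setting were 5, 53 and 35 in Chtop, 2, 11 and 13 in Alyref, 2, 1 and 1 in Nxf1 and 0, 0 and 0 in Control. ENSG00000272578, a transcribed unprocessed pseudogene on chromosome 22, was higher in Alyref by 1.09 on the log2 scale (edgeR adjusted p = 0.0431), with 14, 125 and 117 tags in Alyref, 6, 62 and 37 in Chtop, 0, 13 and 5 in Nxf1 and 0, 7 and 2 in Control. All tags of LRP5L and ENSG00000272578 lay in another gene on the strand as well, so they cannot be told apart from tags of that gene, while ZNF731P had 123 tags in no other gene.

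Families of pseudogenes were described by the genes they derive from, with the families defined by symbol. Copies of genes for translation factors and RNA-binding proteins had tags in the largest shares of their loci among families of protein genes. Translation factor pseudogenes had tags in 62 of 136 loci (45.6%), RNA-binding protein pseudogenes in 105 of 248 (42.3%), chaperone pseudogenes in 57 of 177 (32.2%), glycolytic enzyme pseudogenes in 26 of 85 (30.6%) and ribosomal protein pseudogenes in 357 of 1347 (26.5%). Chromatin protein pseudogenes had them in 40 of 187 (21.4%) and cytoskeleton pseudogenes in 43 of 216 (19.9%). At the low end were respiratory chain pseudogenes with 18 of 202 (8.91%), nuclear copies of mitochondrial genes with 30 of 380 (7.89%) and olfactory receptor pseudogenes, remnants of genes used in the nose, with 14 of 398 (3.52%). Over all loci the share was 19.3%. The share of exon bases that begin a unique 30-mer ranged from 26.4% in segmental duplication pseudogenes to 87.1% in glycolytic enzyme pseudogenes. Exons covered 131 kb over the 136 translation factor loci, 723 kb over the 1347 ribosomal protein loci and 355 kb over the 398 olfactory receptor loci. The part of unique sequence, of length and of transcription of the parent genes in the order was not tested.

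**Figure D5:**
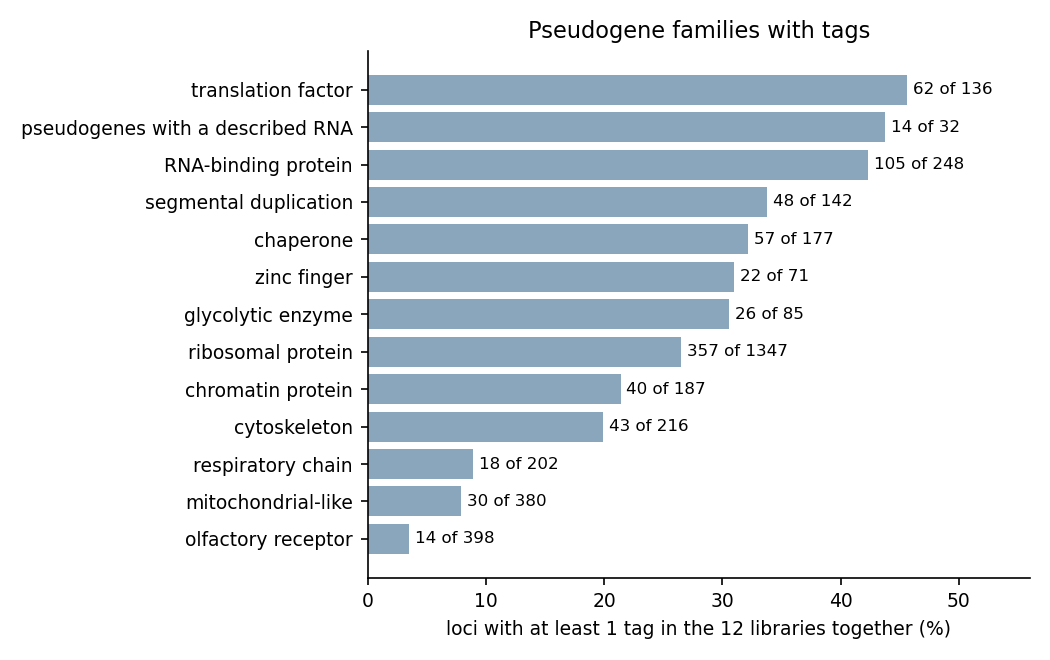
Percent of loci (horizontal axis) with at least 1 tag in the 12 libraries together, for the 13 pseudogene families, with the number of loci beside each bar. Translation factor, described-RNA and RNA-binding protein pseudogenes lie above 42%, and olfactory receptor pseudogenes lie at 3.52%.

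Ribosomal protein pseudogenes, the largest family, had 44, 121 and 246 tags in Alyref, 13, 101 and 112 in Chtop, 1, 72 and 194 in Nxf1 and 4, 10 and 15 in Control. As CPM the means were 380 ± 176 in Alyref, 241 ± 47 in Chtop, 603 ± 479 in Nxf1 and 397 ± 178 in Control. Nxf1 covered the ranges of all other groups. For every 1000 tags in the 78 parent genes the copies held 84.3 tags in Alyref, 131 in Chtop, 162 in Nxf1 and 129 in Control, with library values of 48.0 to 178, 89.9 to 213, 47.6 to 286 and 80.0 to 211. The ranges overlapped among all 4 groups. The members with the highest mean CPM were RPL23AP53 and RPL31P46, both transcribed processed copies, with 36 and 21 tags in all.

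Translation factor pseudogenes had 82 tags in Alyref, 44 in Chtop, 92 in Nxf1 and 6 in Control, led by the elongation factor copies EEF1A1P13 and EEF1A1P17, of which EEF1A1P13 held 19. In CPM the family had 83.9 ± 53.5 in Alyref, 38.4 ± 27.3 in Chtop, 194 ± 190 in Nxf1 and 50.4 ± 54.5 in Control. RNA-binding protein pseudogenes had 188, 97, 51 and 18 tags in the 4 groups, led in mean CPM by PCBP2P2, with 24 tags, and HNRNPA1P14, whose 4 tags included 1 in the shallow Control replicate 1. The ranges of the groups overlapped in both families.

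Glycolytic enzyme pseudogenes had 84, 76, 47 and 13 tags, and most lay in 1 locus. PGAM1P5 (chr12:95945358-96067775, plus strand) held 141 tags, of which 1.4% lay in exons. They were 1, 10 and 37 in Alyref, 2, 19 and 28 in Chtop, 0, 11 and 20 in Nxf1 and 0, 2 and 11 in Control. In each group replicate 3 had the most tags, and the base windows printed above are part of this signal. TPI1P1, a copy of triosephosphate isomerase, was second in the family.

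Chaperone pseudogenes had 60, 39, 38 and 2 tags (HSPA9P1 and DNAJB6P4 led by mean CPM, the latter with 1 tag), cytoskeleton pseudogenes 45, 51, 24 and 5 (TUBBP1 and KRT8P12), and chromatin protein pseudogenes 34, 27, 17 and 4 (HMGN2P46, and H3P44 with 3 tags). Respiratory chain pseudogenes had 15, 4, 11 and 2 tags (UQCRFS1P1 with 6, and ATP5POP1 with 2). With tags in overlapping genes kept, the last family rose to 189, 123, 29 and 11, mostly in SDHAP3, SDHAP1 and SDHAP2, copies of a succinate dehydrogenase subunit, with 185, 61 and 51 tags. Leading places in these families are set by mean CPM, in which a single tag of a shallow library weighs most. Mitochondrial-like pseudogenes had 14, 11, 32 and 7 tags (MTND4P12 and MTCO3P12), of which 27 were in Nxf1 replicate 3. Olfactory receptor pseudogenes had 10, 4, 7 and 1 (OR10B1P, with 5, and OR51A9P, with 2).

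Pseudogenes in segmental duplications had tags in 48 of 142 loci (33.8%), with 26.4% of their exon bases beginning a unique 30-mer. They held 276 tags in Alyref, 279 in Chtop, 60 in Nxf1 and 15 in Control, and 1289, 880, 196 and 52 with tags in overlapping genes kept. NBPF17P, of the NBPF family amplified in primates, held 99 and WASH8P, a copy of a subunit gene of the actin-nucleating WASH complex, held 73. Zinc finger pseudogenes had tags in 22 of 71 loci (31.0%), with 14, 73 and 109 in Alyref, 11, 148 and 104 in Chtop, 3, 5 and 21 in Nxf1 and 1, 4 and 1 in Control. In CPM they had 156 ± 35 in Alyref, 250 ± 22 in Chtop, 176 ± 171 in Nxf1 and 85.1 ± 57.7 in Control. The 3 Chtop libraries, from 234 to 275 CPM, lay above those of Alyref, from 116 to 181, and of Control, from 27.0 to 143. Nxf1 replicate 1 lay above them, at 369 CPM from 3 tags. The 2 loci ZNF37BP and ZNF731P led this family and together held most of its Chtop tags. The order of the groups without these 2 loci was not tested. ZNF37BP was the 1 family member among the 9 loci tested.

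Of 32 pseudogenes whose RNA has been described elsewhere, 14 (43.8%) held tags, with 142 in Alyref, 118 in Chtop, 33 in Nxf1 and 11 in Control. The means were 105 ± 11, 147 ± 62, 71.7 ± 63.9 and 88.0 ± 76.3 CPM, and the ranges overlapped. DUXAP10, a copy of the double homeobox gene DUXA, held 117 tags, FER1L4, a ferlin pseudogene, held 71, DUXAP9 held 39, RPLP0P2, a copy of the ribosomal stalk protein P0, held 23 and WTAPP1 held 8. None of these 5 had enough tags for the test between groups.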

How the data were processed

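Processed files of 12 libraries were used, in which the authors had merged the 32 sequencing runs, 8 per group, by replicate. Per the labels and methods, the authors removed phiX reads with Bowtie 1.1.2, trimmed adaptors, discarded reads of 15 nt or shorter, aligned with STAR 2.4.2a to hg19 with Ensembl 75 junctions, kept unique alignments and collapsed molecules with UMI-tools 0.5.3. The deposited values are counts of unique tags per crosslinked base and strand. Tags were assigned to GENCODE 44 genes on GRCh37, leaving out tags in more than 1 gene of a strand. Members and gene lists were chosen with earlier results of these data known. Named loci were the 10 with the highest mean CPM, up to 5 called per comparison and direction by size of fold change, the 2 leading loci of each family and 5 with a described RNA, and for sequences the most used bases, of which 1 is not reported here. Measures per library (log2 ratios with 0.5 tags added) were compared by two-sided exact permutation, adjusted by Benjamini-Hochberg in families of 21. Loci were tested with edgeR 4.0.16 quasi-likelihood (TMM, adjusted p under 0.05 over all genes), with DESeq2 1.42.0 as an alternative, in R 4.3.3. Scripts were tested on simulated data. Each interval is the 95% Wilson interval, or exact for ratios of tags.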

Additional observations from a re-analysis of the deposited data

How the results depend on the processing

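Counts of loci called against the other factors moved most. Loci higher in Alyref numbered 0 with DESeq2, with RLE size factors, with no filter on low counts and with the replicate block, and 2 with tags in overlapping genes kept. Loci higher in Chtop numbered 2 with DESeq2 and 12 with no filter, and 1 was lower with overlapping genes kept. In Nxf1, 6 were higher with no filter and 1 with overlapping genes kept, while 0 were lower with DESeq2 and 1 with RLE size factors or no filter. Against Control, 2 were higher in Chtop with no filter. Leaving out 1 library at a time gave 0 to 1 locus higher in Alyref, 1 to 6 in Chtop and 0 to 1 in Nxf1, 0 to 3 lower in Nxf1, and 1 to 2 higher in Chtop against Control. The libraries without which a locus was tested but lost its call are named beside each locus in the report. A locus that did not pass the filter on low tags in a fit had no value there, and not all such fits are named. The second locus against Control appeared without replicate 1 of any group, and the locus higher in Nxf1 without Alyref replicate 1 or 3, Chtop replicate 1, Control replicate 2 or 3, or Nxf1 replicate 1. Of 48 fold changes of called loci under alternatives with all libraries, 36 kept the call and 12 lost it, and with 1 library left out 68 of 87 kept it. None of these changed sign. Fits in which a locus did not pass the filter on low tags, and so had no call, are not among the 87.

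For the per-library measures, with an unadjusted permutation p of 0.05 as the threshold, 265 of 306 values under alternatives with all libraries kept their direction and side. Replicate numbers gave no clear pairing of the libraries. Deviations of same-numbered libraries correlated at -0.29 to 0.45 (median 0.05, 18 pairs, 810 genes), and those of others at -0.52 to 0.50 (median -0.02). By the run titles, replicate 2 of every group had other HiSeq labels than replicates 1 and 3. With the replicate block, the 3′ to 5′ difference of Alyref from the other factors stayed at -0.598, with permutation p = 0.0741, and the block moved the SMPD4BP call to an edgeR adjusted p of 0.0587. It lost no further call and added 1 locus lower in Nxf1, which made 3.

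Without the 10 loci with most tags, the 3′ to 5′ differences from the other factors were -0.616 in Alyref (threshold lost), -0.080 in Chtop (reversed) and 0.696 in Nxf1 (gained), and the exon share differences were 1.70 points in Alyref (reversed) and -14.9 in Nxf1 (gained). The flank ratio differences became 0.35 in Alyref and -0.354 in Chtop, both gained, and 0.0047 in Nxf1. Other reversals of small differences were as follows. The flank ratio with 5 kb flanks was 0.223 for Chtop against Control and 0.0048 against the other factors. Nxf1 against Control gave -0.0072 with each base counted once, -0.062 with unique 30-mers, -0.00021 with overlapping genes kept and -0.034 without mitochondrial-like loci. The exon share of Alyref against the other factors was 4.07 with overlapping genes kept.

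The processed share of Alyref against Control was -5.35 with exons only, -2.41 with overlapping genes kept, -8.27 with both and -0.944 without the 10 loci, and against the other factors -2.43 with overlapping genes kept and -4.43 with both. Nxf1 against Control was -4.75 with exons only. The transcribed share of Alyref was 4.08 against Control and 4.07 against the other factors with exons only and overlapping genes kept, and 0.903 against the other factors with overlapping genes kept alone. Chtop against Control was -0.328 with overlapping genes kept and -3.64 without the 10 loci, and Nxf1 was 1.08 against Control with exons only and 1.28 against the other factors without the 10 loci. The share of tags against the other factors was -0.0065 in Alyref with unique 30-mers and -0.0075 over tags in single genes, 0.027, 0.020 and 0.086 in Chtop with exons only, overlapping genes kept and both, and 0.0073, 0.037 and 0.016 in Nxf1 with unique 30-mers, over tags in single genes and without the 10 loci. The strand ratio against the other factors was -1.39 in Nxf1 with each base counted once (threshold lost), and without the 2 loci -0.261 in Nxf1 (threshold lost) and -0.153 in Chtop (reversed). The density ratios are given in the report: 0.126 and -0.481 for processed over unprocessed, and 0.699 and 0.599 for transcribed over other loci.

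Leaving out 1 library at a time changed direction or side in these ranges. The 3′ to 5′ difference ran from -0.390 to 0.102 for Alyref against Control, and against the other factors from -0.659 to -0.463 for Alyref and 0.147 to 0.415 for Chtop, the last without Nxf1 replicate 1 (permutation p = 0.0357). The exon share of Alyref ran from -3.82 to 3.34 against the other factors. Flank ratios ran from -0.027 to 0.538 in Alyref, from -0.433 to 0.132 in Chtop and from -0.251 to 0.314 in Nxf1 against Control, and from -0.221 to 0.170 for Nxf1 against the other factors. The processed share ran from -3.69 to 5.03 in Alyref, from -7.66 to 1.05 in Chtop and from -3.58 to 10.3 in Nxf1 against Control, and from -1.35 to 5.33 for Alyref and -2.57 to 11.3 for Nxf1 against the other factors, the last without Nxf1 replicate 1 (permutation p = 0.0357). The transcribed share ran from -4.05 to 4.65 for Chtop and -15.0 to 3.48 for Nxf1 against Control, and from -12.3 to 6.14 for Nxf1 against the other factors. The share of tags ran from -0.021 to 0.110 for Nxf1 against Control, and from -0.036 to 0.076 in Alyref, from -0.050 to 0.033 in Chtop and from -0.085 to 0.046 in Nxf1 against the other factors. The strand ratio of Nxf1 ran from -1.72 to -1.30 and stayed past the threshold without Chtop replicate 1 or Nxf1 replicate 3, and not without any other of the factor libraries. The cause of these changes was not tested. Depth limits all values of Nxf1 replicate 1 and Control replicate 1, with 30 and 28 tags in the loci.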
